A study of Mus musculus with 6 samples.

Results

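The genes described here are 10 components of the DNA break checkpoint that act in meiosis: *Atm*, *Atr*, *Chek1*, *Chek2*, *Mdc1*, *Brca1*, *Topbp1*, *Trip13*, *Rad9a* and *Hus1*. They were chosen by name, by a rule on their known roles that uses no measured value, though with earlier results of these data known, and all 10 were found among the 54532 genes of the table. RNA-seq was available from STRA8+ germ cells of mouse testis, in 3 control libraries, whose genotype is given as Cre, and 3 libraries of *Srsf1* conditional knockout (cKO) cells. *Srsf1* encodes a splicing factor of the SR family. The labels give neither the promoter driving Cre, nor the age of the mice, nor how the cells were isolated, nor whether a library came from 1 animal or from a pool, so the p-values below measure the spread between these libraries, which may be in part technical.

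Meiotic cells cut their own chromosomes to start recombination, and they depend on the same kinases that answer accidental breaks. ATM is recruited to double-strand ends and signals through the kinase CHK2, whereas ATR is recruited to single-stranded DNA coated with RPA, is activated by TOPBP1 and by the ring-shaped RAD9-HUS1-RAD1 clamp, and signals through CHK1. In pachytene spermatocytes ATR, BRCA1, TOPBP1 and MDC1 also spread the phosphorylated histone H2AX over the unsynapsed X and Y chromosomes, which are then silenced, and TRIP13, an AAA+ ATPase, strips the HORMAD proteins from chromosome axes that have synapsed.

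All values are FPKM, that is, fragments per kilobase of gene, divided by a size factor of the library. In the deposited values this factor was 0.971 to 1.052 times the sum of counted fragments, so they already carried a scaling between libraries. Differences are log2 fold changes of FPKM + 1, cKO against control, from limma with Benjamini-Hochberg adjustment over the 15451 genes that averaged 1 FPKM or more across the libraries. A gene was called when its adjusted p was at most 0.05. Between 15364511 and 17310353 fragments were counted per control library and between 14447887 and 15326722 per cKO library, and each of the 10 genes had between 103 and 16638 fragments in every library. *Srsf1* was at 84.7, 45.2 and 51.9 FPKM in control replicates 1 to 3 and at 5.08, 4.94 and 5.17 FPKM in the cKO libraries. The stage markers differed as well. The summed FPKM of 10 pachytene markers, led by *Ldhc*, *Hspa2* and *Clgn*, was 762 to 937 in control and 126 to 147 in cKO libraries, and 9 of the 10 were called lower. Of 10 spermatid markers, led by *Tnp2*, *Prm1* and *Prm2*, all were called lower, with sums of 2470 to 8313 in control and 6.60 to 8.19 in cKO libraries. Of 10 early prophase markers, led by *Tex101*, *Sycp3* and *Sycp1*, 2 were called lower and none higher. The 2 were *Spo11*, with group means of 18.7 and 8.85 FPKM, and *Rec8*, with 20.7 and 13.7 FPKM. The sums of the 10 overlapped between the groups (1143 to 1502 in control, 1169 to 1578 in cKO), and *Tex101*, at a mean of 554 FPKM, weighed most in them. Of 10 markers of spermatogonia, led by *Stra8*, *Uchl1* and *Dmrt1*, 1 was called lower and none higher (sums of 910 to 1032 and 997 to 1123). The 1 called was *Dmrtb1*, with group means of 76.3 and 29.5 FPKM, and *Stra8* itself averaged 244 and 272 FPKM without a call. Of 20 somatic markers, led by *Cldn11*, *Insl3* and *Star*, 11 reached the level for testing and 1, *Rhox5*, was called higher (sums of 32.0 to 41.9 and 33.2 to 57.9). The part that these stage differences play in the results below was not tested. In such bulk samples, fewer cells of a type and less RNA per cell cannot be told apart.

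Of the 10 checkpoint genes, 4 were higher in cKO cells (*Atm*, *Chek1*, *Trip13* and *Rad9a*), none was called lower and 6 were not called. Over all genes tested, 11.8% were called higher and 22.2% lower. With 1 library left out, 1 to 3 of the 10 were called higher, *Atm* each time, and 969 to 1767 of all genes tested, against 1821. With replicate number as a block, 1 of the 10 and 891 of all genes were called higher. In 6 of the 10 genes, the 4 called plus *Chek2* and *Hus1*, every cKO library lay above every control library, which held for 21.8% of all genes tested. None of the 10 had every cKO library below every control library, which held for 28.6% of all genes. The median log2 fold change was 0.28 over the 10 genes and -0.0082 over all genes tested. The 10 genes spanned a wide range of levels in control cells, from *Mdc1* (108 ± 17.4 FPKM, SD, n = 3) down to *Rad9a* (3.65 ± 0.799 FPKM, SD, n = 3).

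**Figure D1:**
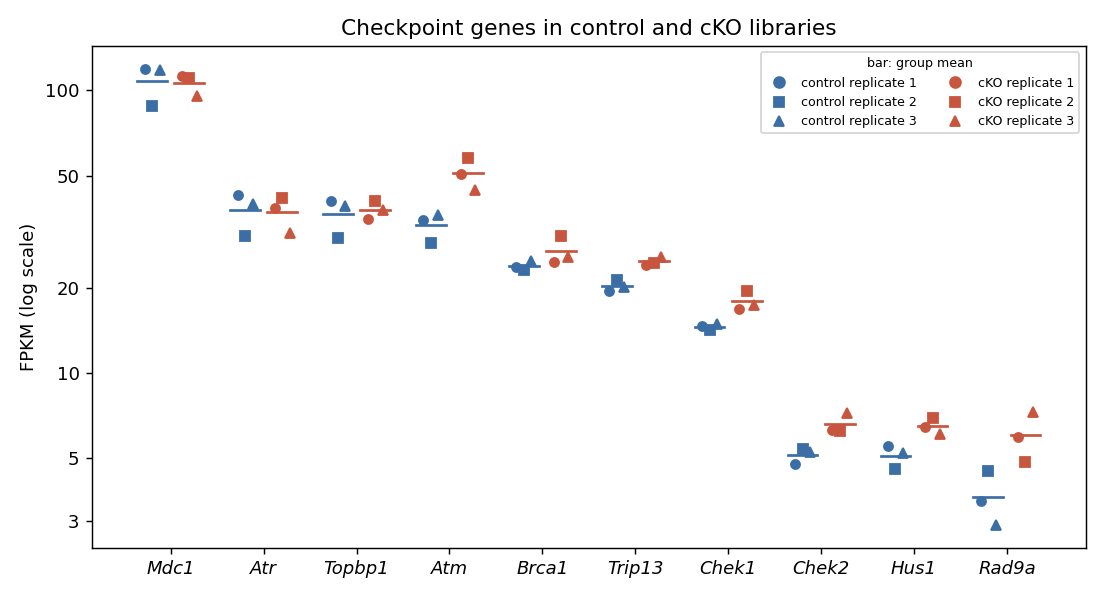
FPKM of each checkpoint gene (log scale) in the 3 control libraries (blue) and the 3 cKO libraries (red), ordered by the control mean; marker shape gives the replicate number and the short bar the group mean. The cKO points of *Atm*, *Trip13*, *Chek1*, *Chek2*, *Hus1* and *Rad9a* lie above all their control points, and those of *Mdc1*, *Atr*, *Topbp1* and *Brca1* overlap with them.

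*Atm* (ENSMUSG00000034218, chr9:53439149-53536740, minus strand, GRCm38), the apical kinase for double-strand breaks, rose in cKO cells. Its FPKM was 34.8, 28.8 and 36.3 in control replicates 1 to 3 and 50.8, 57.5 and 44.3 in cKO replicates 1 to 3. The lowest cKO library stood above the highest control library, with group means of 33.3 ± 3.93 and 50.9 ± 6.55 (SD, n = 3 each), a ratio of 1.53. The log2 fold change was 0.60 (SE 0.12, 95% confidence interval 0.30 to 0.89, limma with Benjamini-Hochberg adjustment, adjusted p = 0.010). It was called under all 16 alternative settings, including each of the 6 that leave out 1 library, with log2 fold changes between 0.50 and 0.76. In control cells *Atm* ranked 4th of the 10 by mean FPKM, behind *Mdc1*, *Atr* and *Topbp1*. In cKO cells its deposited FPKM was above that of *Atr* and *Topbp1* in each library, an order that turns with the gene length used, as given below for *Atr*.

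The promoter of *Atm* is shown because the gene starts head to head with *Npat*, the coactivator of histone gene transcription, with 307 bases between the starts that GENCODE gives them. The window runs from 250 bases before to 50 bases after the RefSeq start (chr9:53536622-53536921, minus strand, GRCm38.p6), and capitals mark the 181 bases of it that lie between both GENCODE starts.
Atm: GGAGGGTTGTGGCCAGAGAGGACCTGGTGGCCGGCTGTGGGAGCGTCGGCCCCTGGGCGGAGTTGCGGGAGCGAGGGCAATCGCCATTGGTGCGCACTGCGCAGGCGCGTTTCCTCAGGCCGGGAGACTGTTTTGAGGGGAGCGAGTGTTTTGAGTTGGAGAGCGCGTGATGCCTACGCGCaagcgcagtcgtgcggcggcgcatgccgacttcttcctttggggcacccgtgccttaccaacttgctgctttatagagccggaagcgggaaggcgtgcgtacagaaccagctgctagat
*Npat* was at 37.3, 30.3 and 35.2 FPKM in the control and 38.1, 55.8 and 41.8 FPKM in the cKO libraries. Every cKO library of *Npat* too was above every control library, but by little in cKO replicate 1, and the gene was not called (log2 fold change 0.38, SE 0.15, limma with Benjamini-Hochberg adjustment, adjusted p = 0.099). This and the other neighbours were picked by position, after values of these genes had been seen.

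*Atr* (ENSMUSG00000032409, chr9:95857597-95951781, plus strand), the kinase of single-stranded DNA, was not called. Its FPKM was 42.7, 30.5 and 39.7 in the control and 38.4, 41.6 and 31.4 in the cKO libraries. The groups overlapped completely around means of 37.7 ± 6.35 and 37.2 ± 5.20 (SD, n = 3 each). The 95% confidence interval of the log2 fold change, -0.38 to 0.35, leaves room for a moderate change in either direction (limma with Benjamini-Hochberg adjustment, adjusted p = 0.949). *Atm* and *Atr* were therefore also set against each other inside each library, which removes any scaling between libraries. The FPKM of *Atr* was 1.23, 1.06 and 1.09 times that of *Atm* in the control libraries and 0.757, 0.724 and 0.709 times in the cKO libraries. The ratio was lower in every cKO library than in every control library, while the side of 1 on which it falls depends on the gene length used. The log2 ratio of FPKM + 1 differed by -0.61 between the groups (0.17 ± 0.11 in control, -0.44 ± 0.047 in cKO, SD, n = 3 each, exact two-sided permutation p = 0.1, the smallest that 3 against 3 allows, 0.2 after Benjamini-Hochberg adjustment over the 4 ratios tested).

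The level of *Atr* beside other genes depends on the gene length used. The table divides by 23629 bases for *Atr*, the union of all its annotated exons, and 11 of its 13 GENCODE transcripts are retained-intron models, whereas its coding transcript has 8102 bases. Per base of coding transcript, *Atr* would average 109.8 in the control libraries against 109.6 for *Mdc1*, and would rank 1st rather than 2nd of the 10. *Topbp1* is divided by 11226 bases against 5224 of coding transcript and would average 78.5, still ranking 3rd. Per base of coding transcript, *Atm* in the cKO libraries, at 53.6, 60.7 and 46.8, was below *Atr* (112.1, 121.3 and 91.7) and *Topbp1* (75.7, 87.5 and 80.96) in each library, the reverse of the order by deposited FPKM. A change of length multiplies an FPKM ratio by the same factor in all 6 libraries. The ratio of FPKM of 1 gene between groups does not depend on this choice, whereas a log2 fold change of FPKM + 1 does so through the added 1. Whether the transcripts used differ between the groups was not tested. Exons of *Atr* also overlap those of the antisense genes *1700065D16Rik* (726 bases) and *Gm16794* (462 bases), at group means of 1.26 to 1.67 FPKM, and whether the counting used strand is not given in the sources used here, so their reads cannot be told apart from those of *Atr* in those bases. The snRNA gene *Gm24004*, on the same strand and not among the genes tested, shares 178 bases of exon with *Atr*.

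**Figure D2:**
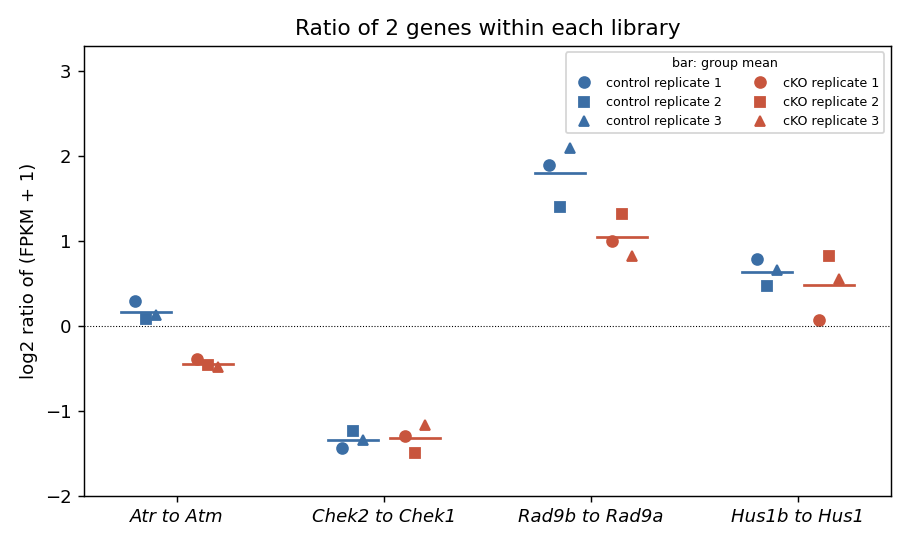
Log2 ratio of FPKM + 1 between 2 genes in each library, for the kinases *Atr* and *Atm*, the kinases *Chek2* and *Chek1*, and the clamp paralogs *Rad9b* and *Rad9a*, *Hus1b* and *Hus1*; blue, control; red, cKO; bars, group means. The groups separate for *Atr* to *Atm* and for *Rad9b* to *Rad9a* and overlap for both other pairs.

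The effector kinases lie below ATM and ATR. *Chek1* (ENSMUSG00000032113, chr9:36708482-36727065, minus strand), the main target of ATR, rose slightly. It was at 14.7, 14.2 and 14.95 FPKM in the control and 16.9, 19.5 and 17.5 FPKM in the cKO libraries. The control values were tight (14.6 ± 0.391, SD, n = 3) and lay below all cKO values (18.0 ± 1.35, SD, n = 3), a ratio of 1.23. The log2 fold change was 0.28 (SE 0.079, 95% confidence interval 0.09 to 0.47, limma with Benjamini-Hochberg adjustment, adjusted p = 0.034). The call was lost when control replicate 1, 2 or 3 or cKO replicate 2 or 3 was left out (adjusted p between 0.068 and 0.086) and without the intensity trend (adjusted p = 0.056). With replicate number as a block the call was lost too (limma adjusted p = 0.115). Its direction held in all 16 alternatives, with log2 fold changes of 0.22 to 0.44.

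*Chek2* (ENSMUSG00000029521, chr5:110839979-110874145, plus strand), the main target of ATM, was at 4.77, 5.41 and 5.28 FPKM in the control and 6.32, 6.24 and 7.26 FPKM in the cKO libraries. The groups did not overlap, and the ratio of means was 1.28 (5.16 ± 0.337 and 6.60 ± 0.567, SD, n = 3 each), but it missed the threshold (log2 fold change 0.30, SE 0.10, limma with Benjamini-Hochberg adjustment, adjusted p = 0.055). It passed under quantile normalisation (adjusted p = 0.0040) and with FPKM recomputed from the sum of fragments (adjusted p = 0.049). The ratio of *Chek2* to *Chek1* differed by 0.026 on the log2 scale between the groups (-1.34 ± 0.10 in control, -1.32 ± 0.17 in cKO, SD, n = 3 each, exact two-sided permutation p = 0.9), and the groups overlapped.

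The mediators, which hold the kinases and their targets together at a break, were not called in either direction. *Mdc1* (ENSMUSG00000061607, chr17:35841515-35859670, plus strand), the adaptor that reads phosphorylated H2AX, was at 119.3, 88.2 and 117.6 FPKM in the control and 112.4, 110.9 and 95.4 FPKM in the cKO libraries. It stood above 98.1% of all genes tested by mean level, and its groups overlapped (log2 fold change -0.019, 95% confidence interval -0.34 to 0.30, limma with Benjamini-Hochberg adjustment, adjusted p = 0.924). *Topbp1* (ENSMUSG00000032555, chr9:103305215-103350428, plus strand), the activator of ATR, was at 40.6, 30.1 and 39.0 FPKM in the control and 35.2, 40.7 and 37.7 FPKM in the cKO libraries. Its control values bracketed 2 of the 3 cKO values, cKO replicate 2 lying just above them (log2 fold change 0.059, 95% confidence interval -0.24 to 0.35, limma with Benjamini-Hochberg adjustment, adjusted p = 0.742).

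*Brca1* (ENSMUSG00000017146, chr11:101488764-101551955, minus strand), a recombination protein and ubiquitin ligase that recruits ATR to unsynapsed axes, was at 23.7, 23.1 and 24.9 FPKM in the control and 24.7, 30.5 and 25.8 FPKM in the cKO libraries. Only the lowest cKO library reached into the control range, and the gene was not called (log2 fold change 0.17, SE 0.093, 95% confidence interval -0.05 to 0.39, limma with Benjamini-Hochberg adjustment, adjusted p = 0.209). Under quantile normalisation, where the median of all genes stood at 0.21, it was called (log2 fold change 0.28, adjusted p = 0.038), and without cKO replicate 2 its log2 fold change was 0.080.

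The spread inside the groups followed a shared order in several of these genes. Control replicate 2 was the lowest control library for 7 of the 10 genes (*Atm*, *Atr*, *Chek1*, *Mdc1*, *Brca1*, *Topbp1* and *Hus1*) and the highest for the other 3 (*Chek2*, *Trip13* and *Rad9a*). The same library had the lowest sum of the early prophase markers among the controls (1143 against 1502 and 1441 FPKM) and the highest sum of the spermatid markers (8313 against 2514 and 2470 FPKM). Among the cKO libraries, replicate 2 was the highest for 6 of the 10 genes and also had the highest sum of early prophase markers (1578 against 1260 and 1169 FPKM). Control values of *Atr*, *Mdc1* and *Topbp1* had coefficients of variation of 16.9%, 16.1% and 15.5%, against 2.68% for *Chek1*, 3.77% for *Brca1* and 4.48% for *Trip13*. Without control replicate 2, the log2 fold changes of *Atr* and *Mdc1* were -0.15 and -0.16, and neither was called.

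**Figure D3:**
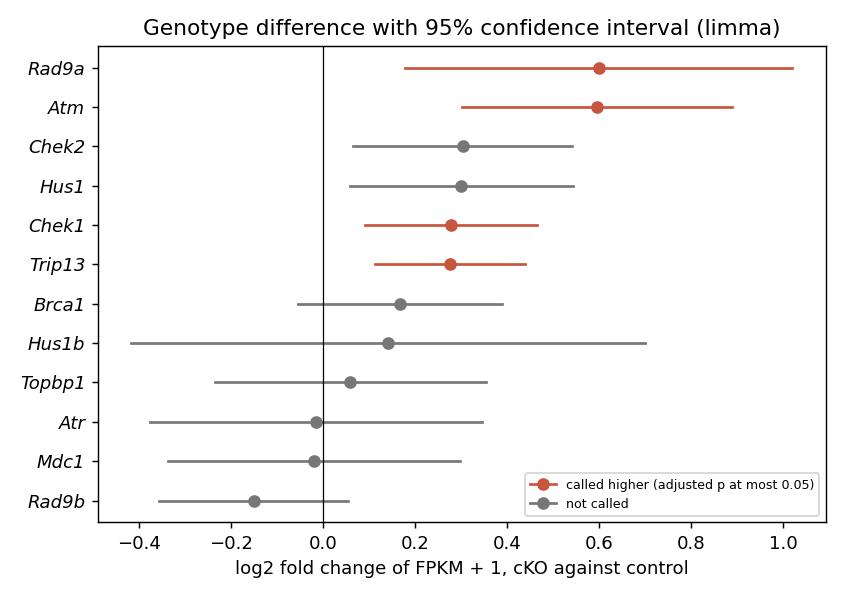
Log2 fold change of FPKM + 1, cKO against control, of the 10 checkpoint genes and of the paralogs *Rad9b* and *Hus1b*, with 95% confidence intervals from limma; red, called higher; grey, not called. The intervals of *Atr* and *Mdc1* are centred near 0 and reach from -0.38 to 0.35 and from -0.34 to 0.30.

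*Trip13* (ENSMUSG00000021569, chr13:73911347-73937784, minus strand), the ATPase that removes HORMAD proteins, rose with little spread. It was at 19.5, 21.3 and 20.2 FPKM in the control and 24.2, 24.6 and 25.8 FPKM in the cKO libraries. The groups were well separated (20.4 ± 0.913 and 24.9 ± 0.833, SD, n = 3 each, ratio 1.22). The log2 fold change was 0.28 (SE 0.069, 95% confidence interval 0.11 to 0.44, limma with Benjamini-Hochberg adjustment, adjusted p = 0.021). The call was lost without control replicate 1, control replicate 3 or cKO replicate 3 (adjusted p = 0.068, 0.070 and 0.089) and with replicate number as a block (limma adjusted p = 0.087). It was also lost with libraries scaled to the early prophase markers (log2 fold change 0.44, adjusted p = 0.071). These markers include *Spo11* and *Rec8*, which were themselves called lower. The axis genes *Hormad1*, *Hormad2* and *Ccdc36* (IHO1), the spindle checkpoint gene *Mad2l1* and *Mad2l1bp*, whose product hands HORMA proteins to TRIP13, had log2 fold changes between -0.13 and 0.16. None of the 5 was called, and the groups overlapped in each.

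The promoter of *Trip13* is shown because it is the one place where a called checkpoint gene and a neighbour called in the opposite direction start side by side. *Trip13* and *Brd9*, which encodes a bromodomain subunit of a chromatin remodeller, run away from each other from GENCODE starts 27 bases apart. The window (chr13:73937718-73938017, minus strand, GRCm38.p6) has 67.3% G and C, and capitals mark the 26 bases between both starts.
Trip13: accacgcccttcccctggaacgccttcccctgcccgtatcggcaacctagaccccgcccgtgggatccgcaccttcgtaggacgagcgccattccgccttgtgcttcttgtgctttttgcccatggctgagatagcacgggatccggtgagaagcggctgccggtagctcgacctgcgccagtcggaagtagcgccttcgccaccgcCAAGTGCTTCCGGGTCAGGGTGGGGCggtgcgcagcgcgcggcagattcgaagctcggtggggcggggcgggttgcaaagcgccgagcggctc
*Brd9* was at 11.3, 11.04 and 12.2 FPKM in the control and 8.53, 8.78 and 7.79 FPKM in the cKO libraries, with every cKO library below every control library. It fell (log2 fold change -0.42, SE 0.084, limma with Benjamini-Hochberg adjustment, adjusted p = 0.0090), while *Trip13* rose. *Brca1* also starts head to head with a gene that fell, *Nbr1*, a receptor for selective autophagy, with 194 bases between the starts. *Nbr1* was at 42.5, 51.7 and 42.9 FPKM in the control and 35.2, 36.9 and 35.4 FPKM in the cKO libraries (log2 fold change -0.34, SE 0.090, limma with Benjamini-Hochberg adjustment, adjusted p = 0.028), again without overlap. The *Brca1* window (chr11:101551906-101552205, minus strand, GRCm38.p6) is given for comparison, with capitals for the 193 bases between both starts.
Brca1: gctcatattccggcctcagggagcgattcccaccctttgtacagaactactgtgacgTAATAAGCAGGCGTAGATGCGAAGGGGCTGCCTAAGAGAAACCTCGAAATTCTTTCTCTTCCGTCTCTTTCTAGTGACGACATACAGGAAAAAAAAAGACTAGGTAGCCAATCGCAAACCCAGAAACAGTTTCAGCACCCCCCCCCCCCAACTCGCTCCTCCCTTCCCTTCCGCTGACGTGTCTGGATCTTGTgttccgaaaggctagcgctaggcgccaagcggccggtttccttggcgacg
In all, 5 of the 10 genes start head to head with a coding neighbour within 1000 bases; the others are *Chek2* with *Hscb* (202 bases) and *Topbp1* with *1300017J02Rik* (133 bases), and neither neighbour was called.

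RefSeq promoter windows were at hand for 9 of the 10 genes, all but *Rad9a*. The letters CNCCTCAG, a motif described for the meiotic initiator STRA8, searched on both strands, were in none of the 9 windows and in 7.94% of all 32851 windows of the same length. The CCAAT box, searched on both strands as CCAAT, was in 4 of the 9 (*Atm*, *Brca1*, *Chek2* and *Mdc1*) and in 37.4% of all windows. Of these 4 genes, *Atm* was called higher and the other 3 were not called. These are matches of letters and not sites of binding.

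The clamp genes were the least abundant of the 10 with *Chek2*. *Rad9a* (ENSMUSG00000024824, chr19:4195198-4201603, minus strand), which encodes the clamp subunit that binds TOPBP1, was at 3.53, 4.50 and 2.91 FPKM in the control and 5.94, 4.87 and 7.30 FPKM in the cKO libraries, from 103 to 227 fragments each. The groups did not overlap, but control replicate 2 and cKO replicate 2 were close to each other, and the coefficients of variation, 21.9% and 20.1%, were the highest of the 10 genes in either group. The ratio of means was 1.66 (3.65 ± 0.799 and 6.04 ± 1.22, SD, n = 3 each) and the log2 fold change 0.60 (SE 0.18, 95% confidence interval 0.18 to 1.02, limma with Benjamini-Hochberg adjustment, adjusted p = 0.039). The call was lost without control replicate 1 or 3 or cKO replicate 1 or 3 (adjusted p between 0.095 and 0.13), without the filter on FPKM (log2 fold change 0.60, adjusted p = 0.073) and with scaling to early prophase markers (0.74, adjusted p = 0.070). With replicate number as a block the call was lost too (limma adjusted p = 0.106). Its log2 fold change ranged from 0.47 to 0.73 with 1 library left out.

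Exons of *Rad9a* share 225 bases in GENCODE with *Ppp1ca*, a phosphatase gene on the opposite strand at a far higher level (188 FPKM in control, 202 in cKO, not called, log2 fold change 0.10). As the use of strand in the counting is not given, fragments from these bases cannot be told apart, and the value of *Rad9a* is uncertain to that extent. The table also gives *Rad9a* other ends and a shorter length (2046 bases) than the GENCODE annotation (2362 bases of exon).

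*Hus1* (ENSMUSG00000020413, chr11:8993137-9011191, minus strand), which encodes another clamp subunit, was at 5.52, 4.57 and 5.21 FPKM in the control and 6.46, 6.92 and 6.12 FPKM in the cKO libraries. All cKO values lay above the control values (5.10 ± 0.481 and 6.503 ± 0.404, SD, n = 3 each, ratio 1.28), yet the gene missed the threshold (log2 fold change 0.30, SE 0.10, 95% confidence interval 0.06 to 0.54, limma with Benjamini-Hochberg adjustment, adjusted p = 0.060). It passed in 4 of 16 alternatives, with adjusted p from 0.0070 under quantile normalisation to 0.041 with limma-voom. In control cells *Hus1* and *Chek2* did not differ beyond their spread (5.10 ± 0.481 and 5.16 ± 0.337 FPKM).

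Germ cells also use the paralogs RAD9B and HUS1B in place of the canonical subunits. *Rad9b* was at 15.8, 13.5 and 15.8 FPKM in the control and 12.9, 13.6 and 13.7 FPKM in the cKO libraries and was not called (log2 fold change -0.15, limma with Benjamini-Hochberg adjustment, adjusted p = 0.225). Since *Rad9a* was higher in cKO cells, the paralogs stood closer together there. The FPKM of *Rad9b* was 4.48, 3.005 and 5.42 times that of *Rad9a* in the control libraries and 2.17, 2.79 and 1.88 times in the cKO libraries. These levels too rest on the length used, 4322 bases for *Rad9b* against 1631 of coding transcript, and per base of coding transcript *Rad9b* averaged 39.9 and *Rad9a* 3.58 in control, and 35.6 and 5.94 in cKO cells. The ratios of the groups did not overlap, though control replicate 2 came near cKO replicate 2, and the log2 ratio of FPKM + 1 differed by -0.75 (1.80 ± 0.36 in control, 1.05 ± 0.25 in cKO, SD, n = 3 each, exact two-sided permutation p = 0.1, 0.2 after Benjamini-Hochberg adjustment over 4 ratios). *Hus1b*, an intronless gene, was at 10.3, 6.71 and 8.82 FPKM in the control and 6.81, 13.1 and 9.42 FPKM in the cKO libraries. Its values spread widely in both groups, it was not called (log2 fold change 0.14, limma with Benjamini-Hochberg adjustment, adjusted p = 0.675), and its ratio to *Hus1* overlapped between the groups (difference -0.16, exact two-sided permutation p = 0.7). *Rad1*, the subunit common to all forms of the clamp, was at 3.74, 3.61 and 4.23 FPKM in the control and 2.96, 3.39 and 3.38 FPKM in the cKO libraries. Every cKO library of *Rad1* was below every control library, but it was not called (log2 fold change -0.20, limma with Benjamini-Hochberg adjustment, adjusted p = 0.211). Exons of *Rad9b* overlap 1002 bases of *Pptc7* on the opposite strand, a gene at 11.3 FPKM in control and 11.8 FPKM in cKO cells, and fragments from these bases cannot be told apart either.

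Beyond these genes, 41 further genes of the pathway were followed in 5 lists. Of the 41, 11 were called higher and 3 lower, 26.8% and 7.32%, against 11.8% and 22.2% of all genes tested. With 1 library left out, 7 to 10 of the 41 were called higher and 1 to 2 lower. By list, 5 of 8 genes of the arrest list were called higher, 4 of 13 of the ATR list, 1 of 7 of the break end list, 1 of 8 of the chromatin list and 0 of 5 of the axis list. Called lower were 2 of 8 genes of the chromatin list and 1 of 13 of the ATR list. Differences between the lists were not tested.

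**Figure D4:**
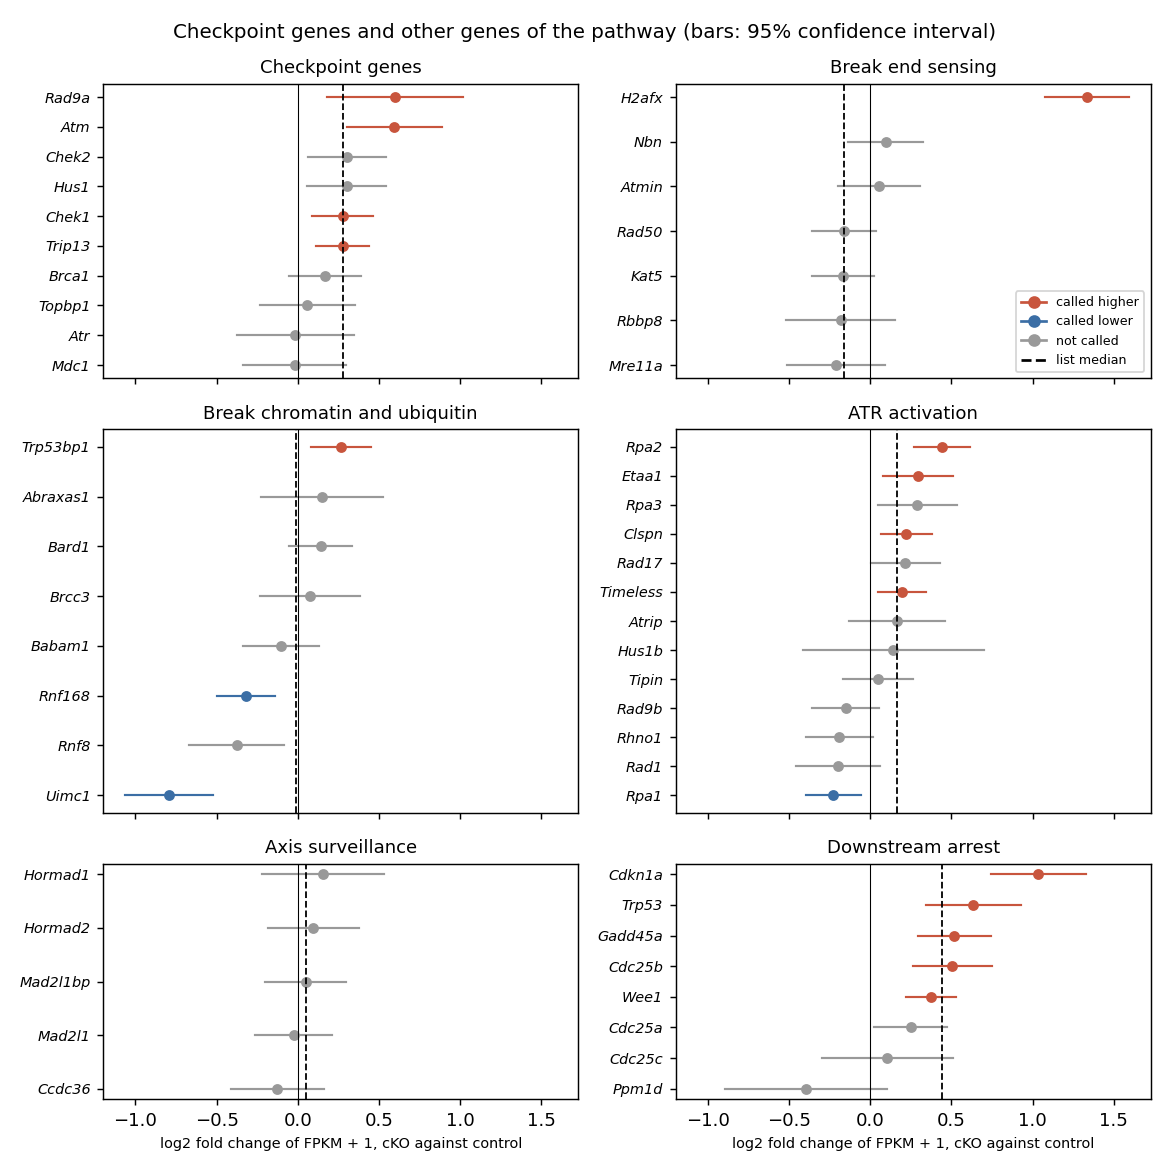
Log2 fold change of FPKM + 1, cKO against control, with 95% confidence intervals from limma, of the 10 checkpoint genes and the 41 further pathway genes in 5 lists; red, called higher; blue, called lower; grey, not called; dashed line, median of the list. *H2afx* (1.34) and *Cdkn1a* (1.03) had the largest values, and *Uimc1* (-0.79) the lowest.

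Among the genes that sense broken ends, *H2afx*, the histone variant that ATM and ATR phosphorylate, rose the most. It was at 55.3, 67.9 and 56.1 FPKM in the control and 169, 145 and 142 FPKM in the cKO libraries. Every cKO library was more than 2 times as high as every control library (log2 fold change 1.34, SE 0.11, limma with Benjamini-Hochberg adjustment, adjusted p = 1.5e-04). The nuclease complex that recruits ATM did not follow. *Mre11a*, *Rad50* and *Nbn* had log2 fold changes of -0.21, -0.16 and 0.09, and none of them, nor *Kat5*, *Atmin* or *Rbbp8*, was called. Only *Kat5* of these 6 had every cKO library below every control library.

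The ubiquitin branch downstream of MDC1 held both directions. *Uimc1*, which encodes RAP80, the subunit that brings BRCA1 to ubiquitinated chromatin, was at 40.1, 30.4 and 34.2 FPKM in the control and 18.4, 21.4 and 19.2 FPKM in the cKO libraries. It fell in all cKO libraries (log2 fold change -0.79, SE 0.11, limma with Benjamini-Hochberg adjustment, adjusted p = 0.0021). The ubiquitin ligase gene *Rnf168* fell as well, from 11.5 ± 0.365 to 9.07 ± 0.350 FPKM (SD, n = 3 each, log2 fold change -0.32, limma adjusted p = 0.018). *Trp53bp1*, which encodes the chromatin reader that limits end resection, rose from 16.6 ± 1.12 to 20.1 ± 0.783 FPKM (SD, n = 3 each, log2 fold change 0.27, limma adjusted p = 0.037). *Uimc1* was called whichever library was left out, whereas *Rnf168* lost its call without control replicate 1 or 3 or cKO replicate 2 or 3 (limma adjusted p between 0.054 and 0.070), and *Trp53bp1* without any 1 of the 6 (between 0.066 and 0.099). *Rnf168* was also smaller and not called under quantile normalisation (log2 fold change -0.10, adjusted p = 0.34) and early prophase scaling (-0.16, adjusted p = 0.41).

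On the ATR side, *Rpa2*, a subunit of the single-strand binding protein, was at 46.6, 52.8 and 52.6 FPKM in the control and 68.1, 71.5 and 67.7 FPKM in the cKO libraries. It rose (log2 fold change 0.44, SE 0.073, limma with Benjamini-Hochberg adjustment, adjusted p = 0.0040), whereas *Rpa1*, the large subunit of the same complex, fell from 26.8 ± 1.14 to 22.8 ± 1.22 FPKM (SD, n = 3 each, log2 fold change -0.23, limma adjusted p = 0.0495). *Etaa1*, an ATR activator that works beside TOPBP1, had a log2 fold change of 0.29, and *Clspn* and *Timeless*, which carry the signal from ATR to CHK1, had 0.22 and 0.19 (limma adjusted p = 0.045, 0.040 and 0.0495). *Rpa2* was called whichever library was left out. *Clspn*, *Timeless* and *Rpa1* lost their calls without any 1 of the 6 libraries (limma adjusted p between 0.059 and 0.16), and *Etaa1* without any 1 except control replicate 2 (between 0.094 and 0.14). *Rpa1* was also smaller and not called under quantile normalisation (log2 fold change -0.11, adjusted p = 0.26) and early prophase scaling (-0.061, adjusted p = 0.80), and the last setting also ended the calls of *Etaa1* (0.45, adjusted p = 0.073) and *Timeless* (0.36, adjusted p = 0.089).

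The arrest list had the highest median log2 fold change of the 5 lists, 0.44, against -0.0082 over all genes tested. It also holds genes that act against arrest, *Cdc25a*, *Cdc25b*, *Cdc25c* and *Ppm1d*, so its median does not measure arrest. *Cdc25a* (log2 fold change 0.25, every cKO library above every control library) and *Cdc25c* (0.11, overlapping) were not called. *Cdkn1a*, the p53 target that inhibits cyclin-dependent kinases, was at 1.40, 1.80 and 1.74 FPKM in the control and 4.76, 4.50 and 4.0 FPKM in the cKO libraries. Its level remained low, but the groups were far apart for their spread (log2 fold change 1.03, SE 0.12, limma with Benjamini-Hochberg adjustment, adjusted p = 8.5e-04). The ratio of means was 2.68, above the 2.55 of *H2afx*, as the added 1 lowers the log2 fold change of low genes. *Trp53* itself rose from 10.2 ± 1.46 to 16.3 ± 1.55 FPKM (log2 fold change 0.63, limma adjusted p = 0.0080), and *Gadd45a*, another p53 target, from 5.25 ± 0.474 to 7.94 ± 0.333 FPKM (log2 fold change 0.52, limma adjusted p = 0.0063, SD, n = 3 each). *Cdc25b*, a phosphatase that activates cyclin-dependent kinases and so acts against arrest, rose too (log2 fold change 0.51, limma adjusted p = 0.0094), as did *Wee1*, the kinase that opposes it. *Ppm1d*, the phosphatase that switches the checkpoint off, was at 27.4, 46.0 and 26.5 FPKM in the control and 25.9, 21.5 and 25.6 FPKM in the cKO libraries, without overlap, and was not called. Its high control value came from replicate 2, the control library with the highest spermatid markers.

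Since several of these genes act in silencing the X chromosome, X-linked genes were counted. Of 634 X-linked genes tested, 155 (24.4%) were called higher and 74 (11.7%) lower. Their median log2 fold change was 0.20. Of 14766 autosomal genes, 11.2% were called higher and 22.7% lower, with a median of -0.019. This stood beside the lower pachytene and spermatid markers given above, stages in which the X chromosome is silenced or recovering, and their part was not tested.

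For each checkpoint gene, the tested gene whose log2(FPKM + 1) followed it most closely over the 6 libraries was also named. For the called genes these were *Cpd* for *Atm* (Pearson r = 0.9999), *Washc4* for *Chek1* (0.998), *Elovl4* for *Trip13* (0.996) and *Tbc1d8* for *Rad9a* (0.997). For the others they were *Lonp1* for *Atr* (0.994), *Hdac4* for *Mdc1* (0.994), *Zfp949* for *Topbp1* (0.990), *Rhox3g* for *Brca1* (0.995), *Cnn2* for *Chek2* (0.995) and *Zfp445* for *Hus1* (0.998). These values describe 6 points in 2 genotype groups, chosen as the highest among 15451 genes.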

How the data were processed

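The authors deposited FPKM per gene, with gene lengths, for 3 control and 3 cKO libraries. Per the labels, reads were aligned to mm10 with HISAT2 2.0.5. The counting tool, the annotation and the use of strand are not given in the sources used here. FPKM times gene length fell on whole multiples of 1 step per library, which gave the fragments per gene. Of the values, 100% lay within 0.05 of a whole number or, for high counts, within a small relative tolerance. Log2(FPKM + 1) of genes averaging 1 FPKM or more was tested with limma 3.58.1 (R 4.3.3, eBayes with trend, Benjamini-Hochberg over 15451 genes, two-sided), which was tested on simulated data. A fold change on this scale understates changes of low genes. Ratios within a library were compared by exact permutation (scipy 1.17.1). The members and lists were chosen with earlier results of these data known. Named were all members, *Srsf1*, *Rad9b* and *Hus1b*, up to 4 called genes per direction and list by size, up to 3 most abundant genes per marker list, and the gene most alike to each member. Other genes were named after their values were seen, among them the neighbours, *Wee1*, *Ppm1d*, *Rad1*, the called markers *Spo11*, *Rec8*, *Dmrtb1* and *Rhox5*, and the list members without a call. Promoters were taken from RefSeq (GRCm38.p6) and gene models from GENCODE (GRCm38). Alternatives were other pseudocounts, filters, scalings, limma settings, a replicate block, each library left out and, chosen after seeing the data, FPKM recomputed from the sum of fragments.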

Additional observations from a re-analysis of the deposited data

How the results depend on the processing

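Of the checkpoint genes, 4 were called higher as tested, 7 under quantile normalisation, 1 under the replicate block, and 1 to 3 when 1 library was left out; *Atm* was called each time. Over all genes, 1821 were called higher, against 5164 under quantile normalisation, 891 under the replicate block and 969 to 1767 with 1 library left out, and 3437 were called lower, against 1950 with a mean of at least 5 FPKM, where *Rad9a* was not tested. The share of calls that were higher was 34.6%, and 67.1% under quantile normalisation, 45.5% with early prophase scaling and 23.7% under the replicate block. Early prophase scaling used the geometric mean of the 10 early prophase markers in each library. Of these, *Spo11* (log2 fold change -1.01) and *Rec8* (-0.56) were themselves called lower. The median of all genes moved to 0.21 under quantile normalisation and 0.14 with early prophase scaling. Under these 2 settings the log2 fold changes of *Atr* (0.090 and 0.15), *Mdc1* (0.057 and 0.15) and *Rad9b* (0.0031 and 0.011) turned positive, below or near the shift of all genes. With FPKM from the sum of fragments, *Atr* was at 0.033 and *Mdc1* at 0.029. With 1 library left out, *Atr* ranged from -0.15 to 0.098, *Mdc1* from -0.16 to 0.056, *Topbp1* from -0.072 to 0.14 and *Hus1b* from -0.072 to 0.35, the difference of the *Chek2* to *Chek1* ratio from -0.053 to 0.12 and that of *Hus1b* to *Hus1* from -0.33 to 0.048. Of the 41 pathway genes, 11 were called higher, against 7 without the filter, 7 without the intensity trend, 17 under quantile normalisation, 7 under the replicate block and 7 to 10 with 1 library left out; 3 were called lower, against 1 under quantile normalisation, 1 with early prophase scaling, 1 under the replicate block and 1 to 2 with 1 library left out. Among the named pathway genes, *Rpa1*, *Timeless*, *Etaa1*, *Clspn*, *Trp53bp1* and *Rnf168* each lost their call in at least 7 of 16 alternatives. The labels do not say that same-numbered libraries share a litter, day or animal. Deviations from the group mean of same-numbered libraries correlated at -0.0014, -0.11 and 0.016, and those of differently numbered libraries at -0.15 to 0.13. With 3 libraries per group, these values can neither show nor exclude a pairing. The median of ratios scaling gave the same calls, since the deposited FPKM already carried these factors. The causes of these differences were not tested. *Rad9a* had as few as 103 fragments in a library and the other members 236 or more.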
